A study of Mus musculus with 12 samples.

Results

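The genes described are 10 mouse genes that move or hold zinc and manganese: the exporters Slc30a10, Slc30a1 and Slc30a4, the importers Slc39a4, Slc39a5, Slc39a8, Slc39a14 and Slc11a2, and the metallothioneins Mt1 and Mt2. They were taken by symbol from the gene-level count tables of 12 colon RNA-seq libraries, which list 55304 symbols, and all 10 were among the 15743 genes with enough counts to test. The members were selected on their CPM across the 3 groups, with results of these same comparisons known, so the levels and fold changes of its members are a description, and no count over the members supports a statement about zinc or manganese handling.

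Each library came from 1 C57BL/6 mouse aged 6 weeks, from colonic epithelium shaken off in EDTA after which the smooth muscle was taken away. The Control OIL group held 4 mice labelled wild-type, treated with sunflower oil and carrying the source prefix EVCER. The Control TMX group held 4 mice labelled wild-type, treated with tamoxifen and carrying the source prefix VilCreER. The Ehf IKO group held 4 mice labelled as intestinal knockouts of Ehf, treated with tamoxifen and again carrying the prefix EVCER. Ehf encodes an epithelial transcription factor of the ETS family. Control TMX and Control OIL therefore differed both in the agent given and in the prefix of the source name, and effects of these cannot be told apart. Ehf IKO shared its prefix with Control OIL and its agent with Control TMX.

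Cells keep free zinc very low. SLC39 (ZIP) proteins bring zinc and other divalent metals into the cytosol, SLC30 (ZnT) proteins move them out of the cytosol across the plasma membrane or into vesicles, and metallothioneins bind zinc and copper within the cell. The transcription factor MTF1 senses zinc and switches on metallothionein genes and Slc30a1 through metal response elements. In the gut epithelium ZIP4 takes up dietary zinc, DMT1 (Slc11a2) takes up ferrous iron, and SLC30A10 exports manganese, so that the same cells set the body's intake and loss of several metals.

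The promoter windows of 4 members are printed because metallothionein genes and Slc30a1 are textbook targets of MTF1 and because Slc30a10 was the member that differed most between groups. Each runs from 250 bases before to 50 bases after the RefSeq transcription start, on the coding strand (GRCm38.p6, all on the plus strand): Slc30a10 at chr1:185454598-185454897, Slc30a1 at chr1:191906531-191906830, Mt1 at chr8:94178839-94179138 and Mt2 at chr8:94172368-94172667. Capitals mark the core of the metal response element, searched as TGCACNC or TGCGCNC on both strands.
Slc30a10: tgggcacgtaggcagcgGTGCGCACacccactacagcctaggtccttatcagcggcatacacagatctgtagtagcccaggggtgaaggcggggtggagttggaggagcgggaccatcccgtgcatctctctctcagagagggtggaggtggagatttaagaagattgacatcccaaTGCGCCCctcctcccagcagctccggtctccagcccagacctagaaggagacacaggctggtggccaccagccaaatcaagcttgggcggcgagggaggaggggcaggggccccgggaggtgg
Slc30a1: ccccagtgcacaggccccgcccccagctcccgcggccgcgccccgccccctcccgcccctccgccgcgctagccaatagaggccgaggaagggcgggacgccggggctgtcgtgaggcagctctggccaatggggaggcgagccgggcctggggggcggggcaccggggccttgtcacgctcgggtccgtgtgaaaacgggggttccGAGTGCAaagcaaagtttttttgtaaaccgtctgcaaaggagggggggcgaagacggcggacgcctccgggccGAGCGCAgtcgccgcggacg
Mt1: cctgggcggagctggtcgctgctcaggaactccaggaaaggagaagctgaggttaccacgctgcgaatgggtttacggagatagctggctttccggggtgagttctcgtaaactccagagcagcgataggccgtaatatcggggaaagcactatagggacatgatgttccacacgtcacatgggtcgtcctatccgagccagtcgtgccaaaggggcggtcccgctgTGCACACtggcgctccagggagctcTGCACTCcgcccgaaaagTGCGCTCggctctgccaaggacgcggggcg
Mt2: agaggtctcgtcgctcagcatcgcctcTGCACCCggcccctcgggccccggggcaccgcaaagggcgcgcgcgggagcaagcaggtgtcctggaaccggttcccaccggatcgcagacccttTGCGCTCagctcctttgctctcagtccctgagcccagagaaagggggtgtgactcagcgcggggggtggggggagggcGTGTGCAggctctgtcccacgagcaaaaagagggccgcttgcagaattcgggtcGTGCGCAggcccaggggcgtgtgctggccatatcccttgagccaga

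The Mt2 window held 4 matches and the Mt1 window 3. Those of Mt1 lay at -23, 3 and 21 from the RefSeq start, counted to the leftmost base with no position 0. Another start would shift these positions, and matches outside the windows were not counted. The Slc30a10 window held 3 matches, but 2 of these overlap on opposite strands at -233 and -232, and the third lay at -73. The Slc30a1 window held 2 matches. Of 32851 such windows in the mouse table, 25.7% held at least 1 match, 7.11% at least 2, 1.97% at least 3 and 0.517% at least 4. Of the other members, Slc30a4 had 3 matches in its window, and Slc39a5 and Slc39a8 had 1 match each in 1 of their 2 windows. No window was available for Slc39a4, Slc39a14 and Slc11a2. The ETS core GGAAGT, searched on both strands, was in none of the 9 member windows and in 23.8% of all windows, which says only that these letters are not in those windows.

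The libraries held 7421411 to 10344161 counts assigned to genes. Mitochondrial genes took 10.7% to 26.3% of them and the noncoding RNA Gm26917 took 3.58% to 11.2%. In Ehf IKO replicate 2, 7 predicted genes that stand apart, led by Gm10801, took 10.3% of the counts, against at most 0.113% in the other libraries. That library also had a count for 36109 genes, against 23588 to 25966 in the others. Epithelial markers (Epcam, Cdh1, Vil1, Krt8, Krt19, Krt20 and Cdx2) summed to 5855 to 9169 counts per 1000000 scaled counts (CPM) in all: 5855 to 7342 in Control OIL, 7109 to 7572 in Control TMX and 7667 to 9169 in Ehf IKO, which lay above both control groups. All 7 were higher in Ehf IKO than in either control group, and 1 of them, Krt20, was called against Control OIL (log2 fold change 0.71 ± 0.17, adjusted p = 0.0438, edgeR). The part of this shift in the values of the 10 genes was not tested. In bulk samples such as these, fewer cells of a type and less RNA per cell cannot be told apart. Ehf itself was at 481, 454, 394 and 385 CPM in Control OIL replicates 1 to 4, at 342, 338, 326 and 375 for Control TMX and at 362, 371, 309 and 323 in Ehf IKO. Both groups given tamoxifen were thus below Control OIL without overlap, and they overlapped each other. For Ehf the log2 fold changes of Ehf IKO relative to Control OIL and to Control TMX were -0.33 ± 0.11 (SE) and -0.02 ± 0.11, with adjusted p of 0.159 and 0.972 in edgeR's quasi-likelihood test. The labels do not say which exons the knockout removes, so a count over the whole gene does not check the genotype.

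Slc30a10, at chr1:185454848-185468762 on the plus strand (GRCm38, ENSMUSG00000026614), encodes a manganese exporter of the plasma membrane, and its loss leads to manganese overload in humans and mice. It was the member that differed most between groups. Its level was 38.4, 26.2, 19.5 and 42.3 CPM in Control OIL replicates 1 to 4, 106, 75.8, 84.4 and 105 CPM for Control TMX, and 54.5, 45.8, 54.1 and 29.3 CPM in Ehf IKO. Every Control TMX library was above every library of the other groups, while Control OIL and Ehf IKO overlapped.

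The mean level of Slc30a10 was 31.6 ± 10.6 CPM in Control OIL, 92.7 ± 15 for Control TMX and 45.9 ± 11.8 in Ehf IKO (SD, n = 4 each). In Control TMX against Control OIL, Slc30a10 rose 2.93-fold, with a log2 fold change of 1.55 ± 0.24 (SE, 95% interval 1.03 to 2.07) and an adjusted p of 0.0413 over all genes tested (edgeR's quasi-likelihood test, Benjamini-Hochberg adjustment, called under 0.05). It was 1 of 13 genes called in that comparison, which is 0.0826% of the genes tested. The groups of 6.88% of the genes tested did not overlap in that comparison. Against Control TMX, Slc30a10 had a log2 fold change of -1.01 ± 0.24 in Ehf IKO (2.02-fold lower), with an adjusted p of 0.0753 that missed the threshold, and 7.18% of genes had groups that did not overlap. Against Control OIL it was 0.54 ± 0.24 with an adjusted p of 0.393. Both comparisons with Control TMX use the same 4 Control TMX libraries.

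The call of Slc30a10 in Control TMX against Control OIL was lost in 7 of the 12 fits that left out 1 library. The adjusted p was 0.0716 without Control OIL replicate 1, 0.136, 0.0797 and 0.099 without Control TMX replicates 1, 2 and 3, and 0.0609, 0.0656 and 0.0753 without Ehf IKO replicates 1, 2 and 3. Over all 12 fits the log2 fold change ran from 1.38 without Control OIL replicate 3 to 1.72 without Control OIL replicate 4. Xist, which female cells transcribe, was present in replicates 1 and 2 of each group. Among libraries with Xist the mean of Slc30a10 was 32.3 CPM in Control OIL and 90.8 in Control TMX, a ratio of 2.81. Among those without it the means were 30.9 and 94.7 CPM, a ratio of 3.07.

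**Figure D1:**
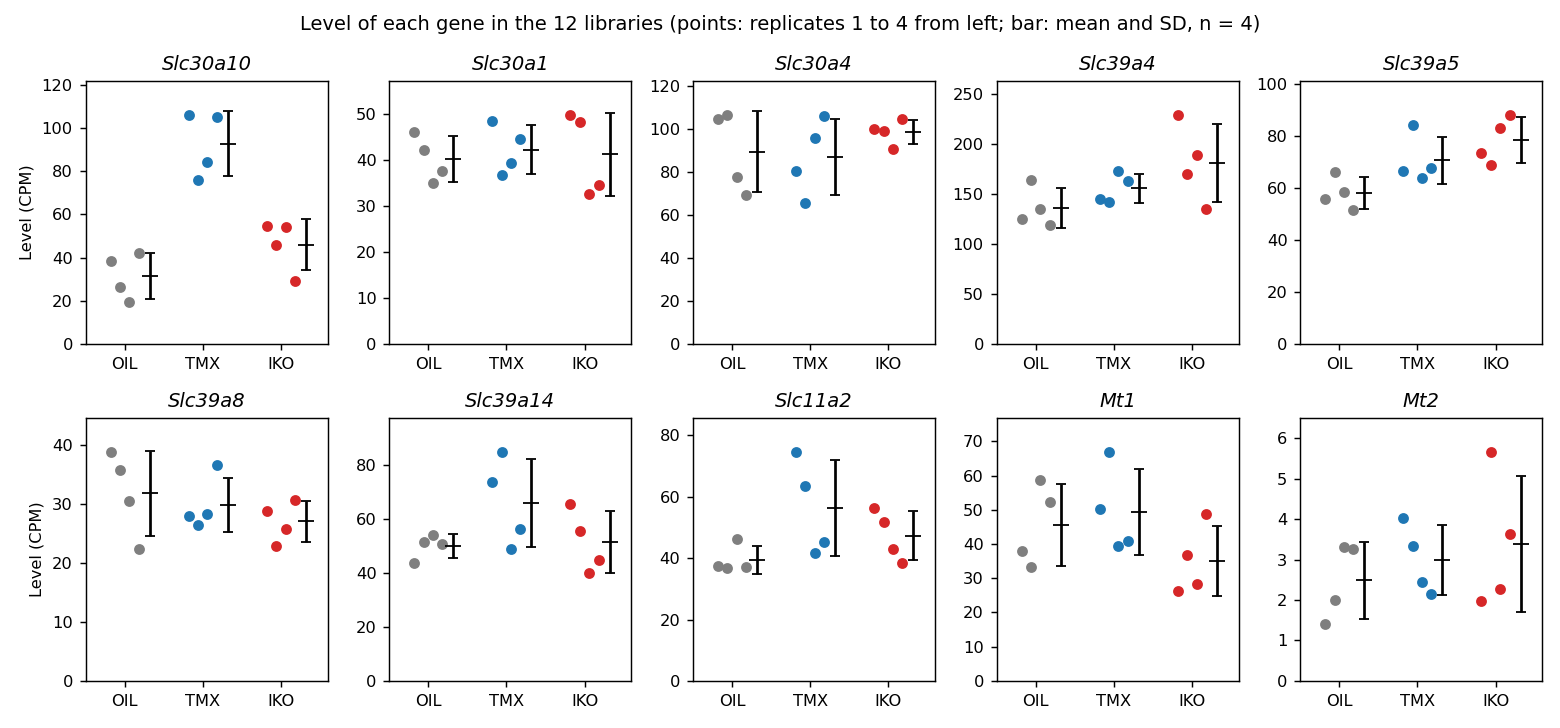
Level of each of the 10 genes in CPM (vertical axis, from 0) in Control OIL, Control TMX and Ehf IKO; points are the 4 libraries of a group in the order of their replicate numbers, and the bar beside them is the mean with its SD. The Slc30a10 libraries of Control TMX lie between 75.8 and 106 CPM, above the other groups, while the remaining 9 genes overlap between Control TMX and both other groups.

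An antisense gene of no assigned function, Gm2061, shares 533 of the 6508 exon bases of Slc30a10. The counting did not use strand, so reads from those bases were assigned to neither gene. Gm2061 was at 3.82 to 8.39 CPM in Control OIL, 14.0 to 18.3 for Control TMX and 3.76 to 9.67 in Ehf IKO, so that it too was highest in Control TMX without overlap. It was picked for its position. Its log2 fold change was 1.47 ± 0.25 in Control TMX against Control OIL (adjusted p = 0.0418, edgeR) and -1.19 ± 0.25 in Ehf IKO against Control TMX (adjusted p = 0.0389). Without strand, reads of Gm2061 outside the shared bases cannot be assigned to one strand either.

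Summed levels of markers of other cell types are given beside these values, and their part in the Slc30a10 result was not tested. The 8 fibroblast and matrix markers summed to 326 to 441 CPM in Control OIL, 445 to 765 for Control TMX and 435 to 1062 in Ehf IKO. The 5 smooth muscle markers summed to 14.4 to 36.6, 35.0 to 81.2 and 20.01 to 67.9 CPM, and the 4 endothelial markers to 7.83 to 9.08, 10.2 to 15.5 and 10.5 to 17.0 CPM. The 4 liver and kidney markers summed to 2.21 to 5.22, 1.40 to 2.23 and 3.03 to 11.4 CPM, with only Alb high enough to test. None of these 4 lists was at 0 in any group. Of the immune markers 5 could be tested, of which 1 was higher and 4 lower in Control TMX than in Control OIL (median log2 fold change -0.37), and 5 were higher in Ehf IKO than in Control TMX (median 0.45). No marker of these 5 lists was called by edgeR in either of those comparisons. Between the controls 3 fibroblast and matrix, 4 smooth muscle, 2 endothelial and 1 immune marker had an unadjusted p under 0.05. Of all genes tested, 12.9% had such a p there. In Ehf IKO against Control OIL, where 1.68% of all genes were called, 2 of the 8 fibroblast and matrix markers were called. Alb also rose there (log2 fold change 2.02, adjusted p = 0.013, edgeR) and against the mean of both controls (1.79, adjusted p = 0.00652). A stromal score, the mean centred log2 CPM of the fibroblast, matrix and smooth muscle markers, was -0.44 ± 0.131 in Control OIL, 0.197 ± 0.141 for Control TMX and 0.244 ± 0.405 in Ehf IKO (SD, n = 4 each). It overlapped neither between the control groups nor between Control OIL (highest -0.32) and Ehf IKO (lowest -0.20). In those comparisons a fit with the score as a covariate cannot separate the score from the group.

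With this score as a covariate, the log2 fold change of Slc30a10 was 0.96 in Control TMX against Control OIL and the call was lost (adjusted p = 1 after rounding). In Ehf IKO against Control TMX, where the score overlapped, it was -1.09 with an adjusted p of 0.0202, past the threshold, and without the covariate it was -1.01. Ehf IKO replicates 1 to 4 had scores of 0.44, 0.037, 0.70 and -0.20 and held 54.5, 45.8, 54.1 and 29.3 CPM of Slc30a10. Control TMX scores ran from 0.037 to 0.36, at 75.8 to 106 CPM. The part of these markers in the Slc30a10 values was not tested.

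**Figure D2:**
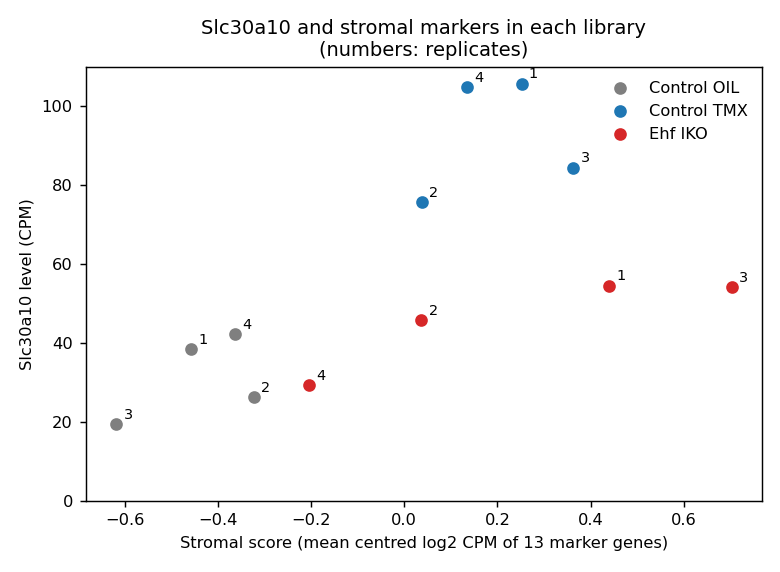
Slc30a10 level in CPM (vertical axis, from 0) against the stromal score (horizontal axis, mean centred log2 CPM of fibroblast, matrix and smooth muscle markers) in the 12 libraries, numbered by replicate. Control OIL lies at low scores and low levels, Control TMX between 75.8 and 106 CPM, and Ehf IKO spans scores of -0.20 to 0.70 at 29.3 to 54.5 CPM.

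The zinc exporters Slc30a1 and Slc30a4 differed less. Slc30a1 (chr1:191906767-191913247, plus strand) encodes ZnT1, which exports zinc across the plasma membrane. It was at 46.1, 42.1, 34.9 and 37.5 CPM in Control OIL, 48.5, 36.7, 39.2 and 44.4 for Control TMX and 49.6, 48.2, 32.5 and 34.5 in Ehf IKO, with all 3 groups overlapping. Its log2 fold changes were 0.07 ± 0.15 in Control TMX against Control OIL, 0.04 ± 0.15 in Ehf IKO against Control OIL and -0.03 ± 0.15 in Ehf IKO against Control TMX. The 95% intervals of these changes ran from -0.24 to 0.39, from -0.28 to 0.35 and from -0.35 to 0.28.

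Slc30a4 (chr2:122681233-122702663, minus strand) encodes ZnT4, which loads zinc into vesicles and, in the mouse mammary gland, supplies it to milk. It was at 105, 106, 77.6 and 69.5 CPM in Control OIL, 80.8, 65.6, 95.8 and 106 for Control TMX and 99.9, 99.1, 90.9 and 105 in Ehf IKO. The Ehf IKO libraries had the smallest SD, 5.73 CPM, against 18.8 in Control OIL and 17.7 for Control TMX, and lay within the range of the controls. The log2 fold changes were 0.14 ± 0.15 against Control OIL and 0.18 ± 0.15 against Control TMX, with adjusted p of 0.831 and 0.711 in edgeR.

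Slc39a4 (chr15:76612383-76617384, minus strand) encodes ZIP4, the apical zinc importer of the gut, whose loss in humans causes the zinc deficiency acrodermatitis enteropathica. It was at 125, 165, 136 and 119 CPM in Control OIL, 145, 142, 173 and 164 for Control TMX and 229, 170, 190 and 135.3 in Ehf IKO. Ehf IKO held the highest library, but the group overlapped both control groups, and its lowest library lay below every Control TMX library. Relative to Control OIL it was 0.41 ± 0.15 higher on the log2 scale in Ehf IKO, and relative to Control TMX 0.21 ± 0.15 higher, with adjusted p of 0.213 and 0.61. The difference from Control OIL passed the threshold only when Ehf IKO replicate 4 was left out among the fits without 1 library (0.53, adjusted p = 0.032, edgeR). With the stromal score as a covariate, which does not overlap between Ehf IKO and Control OIL, it was -0.022.

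Slc39a5 (chr10:128395931-128401229, minus strand) encodes ZIP5, a zinc importer of the basolateral membrane of enterocytes. It was at 55.9, 66.0, 58.5 and 51.5 CPM in Control OIL, 66.6, 84.0, 64.0 and 67.5 for Control TMX and 73.5, 68.9, 83.1 and 87.9 in Ehf IKO. Every Ehf IKO library was above every Control OIL library, as was so in 1 direction or the other for 6.54% of the genes tested, and Ehf IKO overlapped Control TMX. Ehf IKO was 0.43 ± 0.12 higher on the log2 scale than Control OIL (adjusted p = 0.0738, edgeR) and 0.15 ± 0.11 higher than Control TMX (adjusted p = 0.654). DESeq2 placed the first of these past the threshold, at an adjusted p of 0.0253. Control TMX was 0.28 ± 0.11 above Control OIL on the log2 scale, with an adjusted p of 0.325.

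Slc39a8 (chr3:135825279-135888572, plus strand) encodes ZIP8, which carries zinc and manganese. It was at 38.8, 35.7, 30.6 and 22.3 CPM in Control OIL, 28.0, 26.4, 28.3 and 36.6 for Control TMX and 28.9, 22.9, 25.8 and 30.6 in Ehf IKO, and Control OIL spanned the whole range of the other groups. Its log2 fold changes in Ehf IKO were -0.23 ± 0.16 against Control OIL and -0.14 ± 0.16 against Control TMX, with adjusted p of 0.663 and 0.787 in edgeR.

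Slc39a14 (chr14:70303469-70351425, minus strand) encodes ZIP14, which carries zinc, manganese and iron that is not bound to transferrin. Slc11a2 (chr15:100387898-100425072, minus strand) encodes DMT1, the apical importer of ferrous iron, which also carries manganese. Slc39a14 was at 43.9, 51.5, 54.3 and 50.8 CPM in Control OIL, 73.8, 84.9, 48.9 and 56.3 for Control TMX and 65.7, 55.5, 40.2 and 45.0 in Ehf IKO. Slc11a2 was at 37.3, 36.7, 46.4 and 37.2 CPM in Control OIL, 74.6, 63.6, 41.6 and 45.3 for Control TMX and 56.3, 51.6, 43.0 and 38.6 in Ehf IKO. In both groups given tamoxifen, replicates 1 and 2, the libraries with Xist, were the 2 highest for Slc11a2, and for Control TMX and Ehf IKO they were also the 2 highest for Slc39a14. In Control OIL the highest library of each gene was replicate 3, which had no Xist.

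On the log2 scale Control TMX was above Control OIL by 0.39 ± 0.17 for Slc39a14 and by 0.51 ± 0.17 for Slc11a2, with adjusted p of 0.36 and 0.268 in edgeR. Among libraries with Xist, the ratio of the Control TMX mean to the Control OIL mean was 1.67 for Slc39a14 and 1.87 for Slc11a2. Among those without Xist it was 1.00 and 1.04. Such a split was not particular to these 2 genes. With and without Xist the ratio was 1.64 and 0.723 for Mt1, and 2.18 and 0.698 for Mt2. It was 0.69 and 1.37 for Slc30a4, and 0.729 and 1.23 for Slc39a8. Slc30a1 and Slc39a4 were also below 1 with Xist and above 1 without it, while Slc30a10 and Slc39a5 were above 1 in both. With 2 libraries on each side these ratios were not tested. The log2 fold changes of Ehf IKO against Control TMX were -0.35 ± 0.17 for Slc39a14 and -0.24 ± 0.17 for Slc11a2, with adjusted p of 0.45 and 0.632. Slc11a2 shares 402 of its 6354 exon bases with the gene Gm5475 on the other strand. Gm5475 was at 8.39 and 5.56 CPM in Control TMX replicates 1 and 2 and at 1.12 to 3.04 CPM in the other 10 libraries.

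Mt1 (chr8:94179082-94180327, plus strand) and Mt2 (chr8:94172664-94173568, plus strand) encode the widely expressed metallothioneins. Mt1 was at 38.0, 33.2, 58.6 and 52.2 CPM in Control OIL, 50.2, 66.9, 39.4 and 40.8 for Control TMX and 26.2, 36.9, 28.2 and 48.8 in Ehf IKO. The 2 lowest of the 12 libraries were in Ehf IKO, but its highest library lay within both control groups. The log2 fold changes of Mt1 in Ehf IKO were -0.38 ± 0.23 against Control OIL and -0.49 ± 0.23 against Control TMX, with adjusted p of 0.593 and 0.432 in edgeR. With the stromal score as a covariate the first of these was 0.34, in the other direction. The scores of Ehf IKO and Control OIL do not overlap, so that fit cannot separate the score from the group.

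Mt2 was at 1.40, 1.99, 3.31 and 3.26 CPM in Control OIL, 4.04, 3.34, 2.44 and 2.15 for Control TMX and 1.98, 5.66, 2.26 and 3.63 in Ehf IKO, from 10 to 41 counts a library. Of its 588 exon bases, 432 are shared with the antisense gene Gm45774, and reads there were assigned to neither gene, so Mt2 was counted over 156 bases. Gm45774 itself had 0 to 4 counts a library. The log2 fold changes of Mt2 in Ehf IKO were 0.41 ± 0.36 and 0.19 ± 0.36 against Control OIL and Control TMX. Their 95% intervals ran from -0.35 to 1.18 and from -0.57 to 0.95. Without Ehf IKO replicate 2, which held the 41 counts, the change against Control TMX was -0.17.

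**Figure D3:**
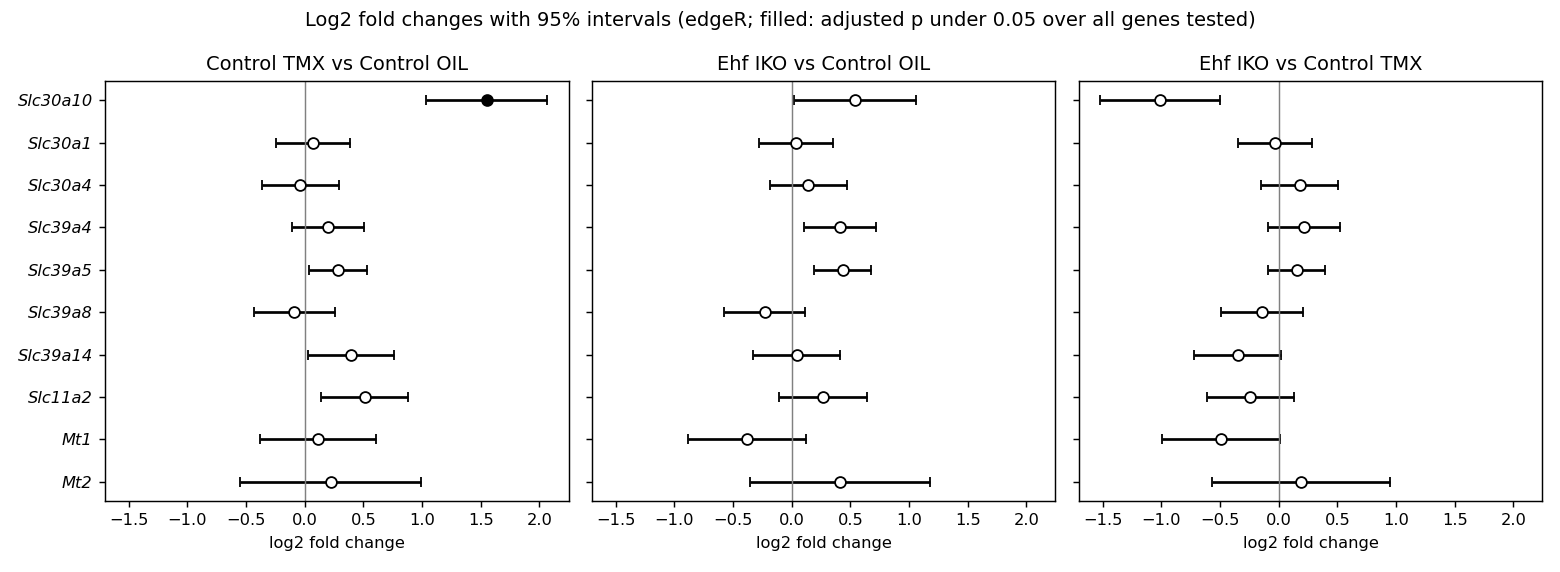
Log2 fold changes of the 10 genes (horizontal axis) with 95% intervals in 3 comparisons; a filled point marks an adjusted p under 0.05 in edgeR's test over all genes. Only Slc30a10 in Control TMX against Control OIL is filled, at 1.55.

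In all, 0 of the 10 genes were called in Ehf IKO against Control OIL, where 1.68% of all genes tested were, and 3 had an unadjusted p under 0.05, as had 11.9% of all genes. DESeq2 called 1 of them there, among 534 of all 15743 genes, and limma-voom 0, among 230. In Ehf IKO against Control TMX edgeR called 0 of 10 (0.8% of all genes) with 1 at an unadjusted p under 0.05 (11.9% of all genes). DESeq2 called 1 there, which was Slc30a10 (adjusted p = 0.00335), among 305 genes, and limma-voom called 0, among 116. In Ehf IKO against the mean of both controls edgeR called 0 of 10 (1.72% of all genes) with 2 at an unadjusted p under 0.05 (11.6% of all genes), and DESeq2 and limma-voom called 0. In Control TMX against Control OIL 1 of 10 was called by each of the 3 tools, which used the same counts. Of all 15743 genes edgeR called 13 (0.0826%), limma-voom 13 and DESeq2 197. In edgeR 4 members had an unadjusted p under 0.05 there, against 12.9% of all genes.

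The median log2 fold change of the 10 genes was 0.20 in Ehf IKO against Control OIL, -0.088 in Ehf IKO against Control TMX and 0.21 in Control TMX against Control OIL. The medians over all genes tested were -0.0081, 0.015 and -0.0081. The first and the last share the Control OIL libraries, and the numbers of members above their reference group were 8 of 10, 4 of 10 and 8 of 10. Since the list was made with these values known, the counts are a description.

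To compare levels between genes, CPM were divided by the kilobases of exon that a gene shares with no other. The median over the 12 libraries was 49.8 CPM per kb for Slc39a4, 32.2 for Mt1, 30.1 for Slc39a5, 18.3 for Mt2, 18.2 for Slc30a4, 8.51 for Slc30a1, 8.37 for Slc30a10, 7.41 for Slc11a2, 5.01 for Slc39a14 and 3.73 for Slc39a8. By this measure the zinc importer Slc39a4 had the highest median of the 10. It was above Mt1 in 9 of the 12 libraries. Mt1 and Slc39a5, Mt2 and Slc30a4, Slc30a1 and Slc30a10, and Slc30a10 and Slc11a2 were neighbours whose order was not stable, the upper gene being above in 7, 6, 7 and 7 of the 12 libraries. Slc30a4 was above Slc30a1, and Slc11a2 above Slc39a14, in all 12 libraries. Within groups the order by mean differed in places: Slc30a10 ranked 8 in Control OIL and Ehf IKO and 6 in Control TMX, and Slc39a5 was above Mt1 in Ehf IKO. The place of Mt2 rests on the 156 bases counted for it. The 1246 exon bases of Mt1 are its whole span from start to end, so any intron is part of its length. A shorter transcript would put Mt1 higher per kb, so the order of Mt1 and Slc39a4 rests on that length.

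**Figure D4:**
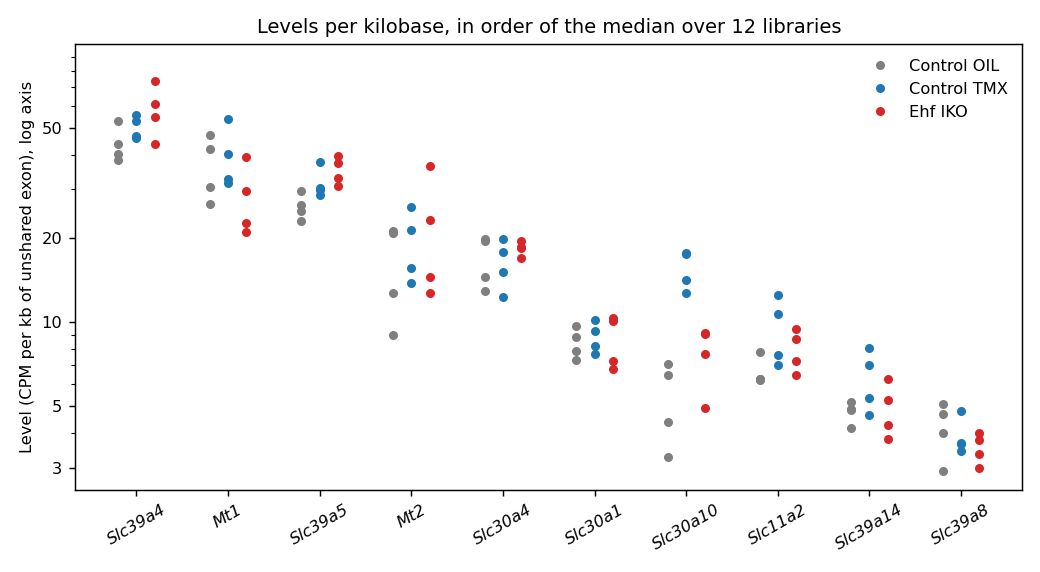
Level per kilobase of unshared exon (vertical log axis, CPM per kb) of the 10 genes in each of the 12 libraries, coloured by group and ordered by the median, from 49.8 for Slc39a4 to 3.73 for Slc39a8. Slc30a10 spans 3.26 to 17.7 CPM per kb, with all Control TMX points at the top of its range.

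The 10 genes did not move as 1 block from library to library. After subtracting group means from log2 CPM, 23 of their 45 pairs had a Pearson r above 0 over the 12 libraries, with a median of 0.0334. The pairs with the highest r were the manganese and iron carriers Slc39a14 and Slc11a2 (0.847), the carriers Slc30a4 and Slc39a8 (0.806) and the metallothioneins Mt1 and Mt2 (0.731). The lowest was -0.804, between the importer Slc39a4 and Mt1: Ehf IKO replicate 1 had the highest Slc39a4 (229 CPM) and the lowest Mt1 (26.2 CPM) of all 12 libraries. The points share library, depth and cell makeup, so these are descriptions of 12 libraries. Only group means were subtracted, so differences between libraries with and without Xist remain in r. Their part in these values was not tested.

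**Figure D5:**
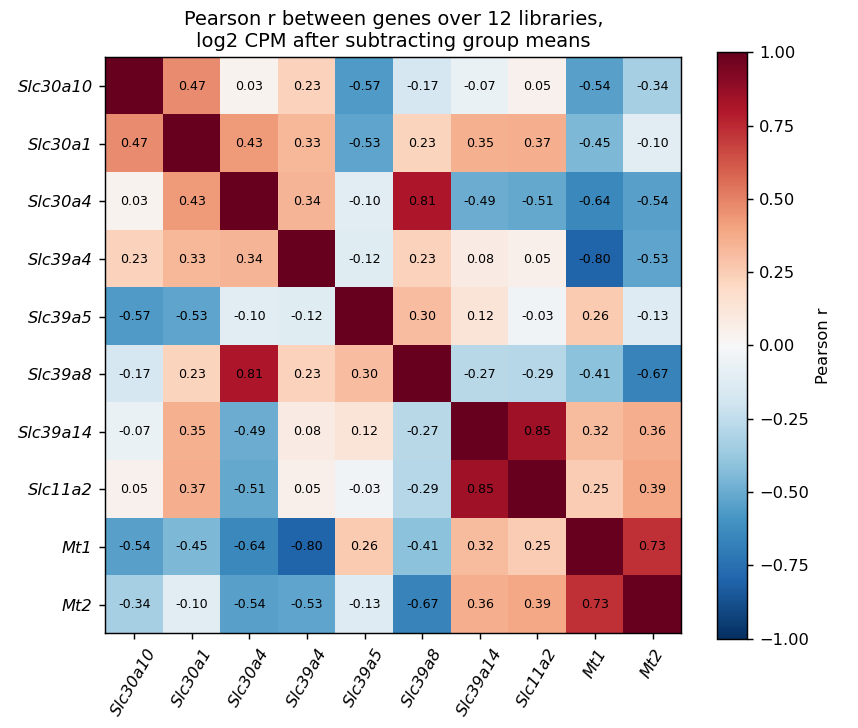
Pearson r between the log2 CPM of each pair of the 10 genes over 12 libraries after group means were subtracted, on a colour scale from -1 (blue) to 1 (red). The deepest red off-diagonal cells are Slc39a14 with Slc11a2 (0.85), Slc30a4 with Slc39a8 (0.81) and Mt1 with Mt2 (0.73), and the deepest blue is Slc39a4 with Mt1 (-0.80).

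Among 11887 other genes, the pattern of log2 CPM over the 12 libraries most like that of Slc30a10 was that of Atrnl1 (r = 0.890), which encodes an attractin-like membrane protein, followed by the ferritin heavy chain gene Fth1 (0.884), Farp2 (0.863), the cytochrome P450 reductase gene Por (0.852) and the T-box factor gene Tbx3 (0.841). Fth1 was at 322 to 476 CPM in Control OIL, 512 to 661 for Control TMX and 373 to 469 in Ehf IKO, and like Slc30a10 it was highest in Control TMX without overlap. Its log2 fold change in Control TMX against Control OIL was 0.50 ± 0.13, with an adjusted p of 0.158 in edgeR. Por rose in that comparison by 0.73 ± 0.13 on the log2 scale (adjusted p = 0.0418, edgeR). The genes near Slc30a10 were picked by r with group differences kept, so their high levels in Control TMX follow in part from the pick. Between the controls, 6.88% of all genes tested had groups that did not overlap, and 0.0826% were called. Between Ehf IKO and Control TMX, 7.18% had groups that did not overlap. Closest to Mt1 were Frmd4a (0.936), the sterol 27-hydroxylase gene Cyp27a1 (0.920), the junction protein gene Cgnl1 (0.905), Zfp746 (0.896) and the nucleotide receptor gene P2ry6 (0.876). None of these 5 was called in any of the 4 comparisons.

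The other genes of the 2 transporter families were not called in any comparison. Of the other SLC30 genes 4 of 7 could be tested, and of the other SLC39 genes 9 of 10. Slc39a13, which encodes a zinc carrier of the secretory pathway, was 0.56 ± 0.18 lower on the log2 scale in Ehf IKO than in Control TMX without overlap, with an adjusted p of 0.203 (edgeR). The Golgi and vesicle zinc carriers Slc30a5, Slc30a6 and Slc30a7 had log2 fold changes of 0.15, 0.22 and 0.02 in that comparison, and Slc30a9 of -0.12. Slc39a1, Slc39a9 and Slc39a10, importers of the same family, had 0.15, 0.09 and 0.57. Slc30a2, Slc30a3, Slc30a8 and Slc39a12 had 69, 8, 2 and 4 counts over all 12 libraries.

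Of the zinc sensing and storage genes 4 of 5 were tested and 0 were called. The log2 fold change of the sensor gene Mtf1 in Ehf IKO was 0.07 ± 0.15 against Control OIL and -0.09 ± 0.15 against Control TMX. Mt3, another metallothionein, was at -1.14 ± 0.41 against Control TMX without overlap (adjusted p = 0.276, edgeR), the zinc-responsive receptor gene Gpr39 at -0.01 ± 0.15 and the vesicular zinc carrier gene Tmem163 at 0.27 ± 0.40. All 5 manganese handling genes were tested and 0 were called: Atp2c1 and Atp2c2, the manganese and calcium pumps of the secretory pathway, had 0.12 ± 0.11 and -0.32 ± 0.13 against Control TMX, the Golgi protein gene Tmem165 had 0.16 ± 0.16, and Slc40a1, the ferroportin gene, had -0.04 ± 0.16. All 7 copper handling genes were tested and 0 were called, with Slc31a1, Slc31a2, Atp7b and Ccs at 0.15, -0.18, -0.79 and -0.04. In Ehf IKO against Control OIL, 11.9% of all genes had an unadjusted p under 0.05 in edgeR. Of these lists, 1 gene each of the SLC30, SLC39, zinc sensing and copper lists did, and 0 of the manganese list.

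Of the iron handling genes 10 of 12 were tested, and 2 rose in Ehf IKO against Control TMX and against the mean of both controls, where 0.8% and 1.72% of all genes were called. Steap4, which encodes a metalloreductase that reduces iron and copper for uptake, was at 10.1, 14.2, 14.5 and 15.8 CPM in Control OIL, 5.59, 6.80, 7.52 and 8.41 for Control TMX and 29.4, 34.9, 17.0 and 13.7 in Ehf IKO. All Ehf IKO libraries were above Control TMX, and 3 of the 4 were above every Control OIL library. Its log2 fold change was 1.73 ± 0.26 against Control TMX (adjusted p = 0.00534, edgeR) and 0.80 ± 0.25 against Control OIL (adjusted p = 0.155). Against the mean of both controls it was 1.26 ± 0.21 (adjusted p = 0.00721, edgeR). That call was kept in 20 of 21 alternatives and lost with the stromal score as a covariate (1.25, adjusted p = 0.0873). The mean includes Control OIL, whose scores do not overlap those of Ehf IKO. The Steap4 call against Control TMX was kept in all 22 alternatives, with an adjusted p of up to 0.0303 (edgeR). All alternatives used the same counts.

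Tfrc, the transferrin receptor gene, was at 268, 177, 167 and 152 CPM in Control OIL, 169, 157, 159 and 176 for Control TMX and 246, 270, 239 and 293 in Ehf IKO. It was 0.66 ± 0.15 higher on the log2 scale in Ehf IKO than in Control TMX (adjusted p = 0.0494, edgeR) and 0.46 ± 0.15 higher than in Control OIL (adjusted p = 0.161). The call against Control TMX was lost in 10 of the 12 fits that left out 1 library, with an adjusted p of up to 0.181 without Control TMX replicate 2, and was kept only without Control OIL replicates 1 and 4. The call against the mean of both controls (0.56, adjusted p = 0.0327) was lost in 9 of these 12 fits, up to an adjusted p of 0.107 without Ehf IKO replicate 2, and with the stromal score as a covariate (0.0837). The call against Control TMX was also lost with DESeq2's size factors (0.0518) and without mitochondrial genes and Gm26917 (0.0511). The other named iron genes, Heph and Steap3, had 0.13 ± 0.11 and 0.14 ± 0.13 against Control TMX.

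Among 7 target genes of NRF2, the factor of the oxidative stress response that also responds to metals, 1 rose. It was called against Control TMX and against the mean of both controls, where 0.8% and 1.72% of all genes were called. All 7 were higher against the mean, and 4 had an unadjusted p under 0.05 in edgeR, as had 11.6% of all genes. The list was chosen with earlier results known, so these counts are a description. Slc7a11, the cystine importer gene, was at 4.61, 2.43, 3.69 and 6.02 CPM in Control OIL, 1.55, 1.36, 3.07 and 4.96 for Control TMX and 9.55, 9.11, 6.25 and 11.7 in Ehf IKO, with every Ehf IKO library above all controls. Its log2 fold change was 1.68 ± 0.36 against Control TMX (adjusted p = 0.0391, edgeR) and 1.12 ± 0.34 against Control OIL (adjusted p = 0.139). The call against Control TMX was lost in 8 of the 12 fits without 1 library, with an adjusted p from 0.0505 without Control OIL replicate 3 to 0.14 without Control TMX replicate 2. Against the mean of both controls (1.40, adjusted p = 0.0228) it was lost without Ehf IKO replicate 1 (0.0779) or 2 (0.0697) and with the stromal score as a covariate (0.0693). Nqo1, Gclc and Txnrd1, of the same list, had log2 fold changes of 0.64 ± 0.17, 0.25 ± 0.10 and 0.23 ± 0.08 against the mean of both controls and were not called. All 7 glucocorticoid receptor targets were tested, since metallothionein genes also answer to glucocorticoids, and 0 were called: Fkbp5 and Tsc22d3 had -0.54 ± 0.19 and 0.35 ± 0.12 against the mean of both controls, and Per1 and Zbtb16 had -0.84 ± 0.54 and -1.13 ± 0.53. Of these 7 targets, 2 had an unadjusted p under 0.05 against the mean in edgeR, beside the 11.6% of all genes.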

How the data were processed

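RNA-seq of colonic epithelium from 12 mice, 4 per group, was used at the level of genes. The authors deposited raw read counts per gene symbol: per the submitters' processing notes reads were aligned with STAR to GRCm38 and counted with featureCounts of Subread 1.6.1, and per the file headers exons of the Ensembl release 98 annotation were counted by gene name without strand. Reads that map to several places or overlap several genes were not counted under those settings. Ensembl IDs came from GENCODE vM21, and promoter windows from RefSeq (GRCm38.p6).

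From these counts, library factors (TMM) and edgeR's quasi-likelihood test (edgeR 4.0.16, R 4.3.3) were computed in 1 fit of all 12 libraries, after a filter on low counts, with Benjamini-Hochberg adjustment over 15743 genes and calls at an adjusted p under 0.05. CPM are counts per 1000000 counts of the scaled library. Standard errors were taken from the log2 fold change and its F statistic. The steps were tested on simulated data. Each library is a separate mouse by its source name, so p-values measure the spread between mice. The biological coefficient of variation was 18.3%. No 2 libraries of the same group agreed within sampling noise.

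The members and all gene lists were chosen with earlier results of these data known. Named are the 10 members, Ehf, up to 4 genes of each list by p against the mean of both controls with any other called gene, the 5 genes closest in pattern to Slc30a10 and to Mt1 with a mean log2 CPM of at least 1, and marker lists as sums, of which that of the immune list is not reported here. DESeq2 1.42.0, limma-voom (limma 3.58.1), other scalings, filters and covariates, and fits without each library were tried as alternatives.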

Additional observations from a re-analysis of the deposited data

Results flagged for a closer look

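Slc11a2 in Control OIL replicate 3 was at 46.4 CPM, while the other 3 Control OIL libraries lay at 36.7 to 37.3 CPM, a gap that takes up nearly the whole range of the group. It was the only 1 of the 30 gene and group combinations tested that held a library this far from the rest, and chance flags about 1 in 20 groups of this size.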

How the results depend on the processing

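Of 870 alternative log2 fold changes of the 10 members (22 alternatives in each comparison, 21 against the mean of both controls, where a fit of only the groups compared gives no value), 811 kept their direction and their side of the threshold, 9 fell short of it, 11 passed it and 39 changed sign. The call of Slc30a10 in Control TMX against Control OIL (1.55, adjusted p = 0.0413, edgeR) had an adjusted p of 0.0504 with a mean log2 CPM of at least 1. In Ehf IKO against Control TMX it was called with no filter, by DESeq2, with only the groups compared (adjusted p = 0.0238), with the stromal score and without Control OIL replicate 3. The causes of these differences were not tested.

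In the order Ehf IKO against Control OIL, against Control TMX, against the mean of both controls, and Control TMX against Control OIL, edgeR called 265, 126, 270 and 13 genes. No filter gave 724, 500, 831 and 441 genes, with 1, 2, 1 and 2 members, and DESeq2 gave 534, 305, 471 and 197, with 1, 1, 0 and 1 members. Fits of only the groups compared, which repeat the filter on low counts in those libraries (15129 genes tested against Control OIL), called 56 genes higher and 56 lower against Control OIL (1.1e+02 in all, rounded) and 1 member against Control TMX. The stromal score gave 22 genes against Control OIL, 74 against the mean and 4 between the controls, with 1 member against Control TMX and 0 between the controls. A mean log2 CPM of at least 1 gave 5 genes and 0 members between the controls, and sex markers gave 35 genes. The replicate block gave 173, 72 and 148 genes in the first 3 comparisons, and Slc30a10 between the controls was at 1.56 (adjusted p = 0.0385, edgeR). It left Tfrc uncalled against Control TMX (adjusted p = 0.0869) and against the mean (0.0606). No label ties same-numbered mice to each other, though numbers 1 and 2 are the libraries with Xist in every group. Of the same-numbered pairs, 5 of 12 had a correlation over 0.1 (median 0.086), and of other pairs 10 of 36 had (median -0.019). The library closest in pattern had the same number for 5 of 12 libraries. These values do not decide whether mice were paired.

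Without 1 library, 104 to 711 genes were called against Control OIL (0 to 1 members), 50 to 162 against Control TMX (0 to 1), 108 to 522 against the mean and 3 to 67 between the controls (0 to 1). The highest counts came without Ehf IKO replicate 4, and the lowest without Ehf IKO replicate 1, Control TMX replicate 3, Ehf IKO replicate 3 and Control TMX replicate 2.

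Log2 fold changes that changed sign were small or uncalled. With the stromal score, Slc30a10, Slc39a4 and Mt1 against Control OIL were at -0.13, -0.022 and 0.34, and Slc39a4 between the controls at -0.19. The scores do not overlap in these comparisons, so the fit cannot separate the score from the group. Against the mean, Slc30a1 was at -0.038 with no filter, -0.011 by limma-voom, -0.013 with the replicate block, -0.011 with the stromal score and -0.019 with sex markers, and Slc11a2 at -0.028 with no filter and -0.00038 with sex markers. Without 1 library the ranges against Control OIL were -0.065 to 0.13 for Slc30a1 and -0.096 to 0.14 for Slc39a14, and those against Control TMX were -0.14 to 0.065 for Slc30a1, -0.17 to 0.39 for Mt2 and -0.057 to 0.028 for Ehf. Against the mean they were -0.0999 to 0.0997 for Slc30a1, -0.083 to 0.096 for Slc11a2 and -0.057 to 0.50 for Mt2. Between the controls they were -0.071 to 0.25 for Mt1, -0.00064 to 0.14 for Slc30a1, -0.15 to 0.076 for Slc30a4 and -0.23 to 0.017 for Slc39a8. Depth limits Mt2 most, at 10 to 41 counts a library.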
